A study of Homo sapiens with 9 samples.

Results

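The G2/M and spindle genes are a standard list of 55 genes whose transcripts peak as cells leave DNA replication and enter division, the list by which cells are commonly scored for the G2/M phase. Members were found by symbol in the deposited table of raw counts, where they were 55 of 60199 symbols. All 55 were among the 15717 genes with enough counts to be tested. They are described in 6 subgroups by role, which are kinetochore and checkpoint (11 genes), spindle motors (5), spindle microtubules and cytokinesis (16), condensin and chromatin (12), ubiquitin ligase (4), and CDK1 with other mitotic kinases and their partners (7).

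On entry into mitosis, CDK1 bound to B-type cyclins drives chromosome condensation, breakdown of the nuclear envelope and assembly of the spindle. Kinetochores then tie each chromosome to spindle microtubules, and the spindle checkpoint restrains the anaphase-promoting ubiquitin ligase and its activator CDC20 until every chromosome is attached. Genes of this phase are transcribed together under B-MYB, FOXM1 and the MuvB complex, and are repressed in resting cells, through promoter elements known as the cell-cycle genes homology region (CHR) and the CCAAT box.

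Poly-A RNA was sequenced from 9 cultures of cells of the MCF10A line, a non-malignant and immortal human mammary epithelial line, with 3 independent cultures per line. The parental cells (CT) were not transformed and were kept in standard MCF10A medium, without BMP2 or IL6. MC26 and M1B26 were transformed lines kept in that medium with recombinant BMP2, a bone morphogenetic protein, and IL6, an inflammatory cytokine. MC26 came from unsorted MCF10A cells, and M1B26 from cells sorted for the BMP receptor BMPR1B, of which 3 soft-agar clones were picked and expanded. All cultures share the deletion of CDKN2A and the amplified MYC of MCF10A. Because the transformed lines were still in BMP2 and IL6 and the control was not, exposure and transformation cannot be told apart, and for M1B26 neither can the sort and the choice of clones. Whether the 3 M1B26 libraries stand for the 3 clones, and how libraries were batched, is not given in the sources used here. In bulk RNA a smaller share of cells in G2/M and less RNA per cell in that phase cannot be told apart.

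Total counts ran from 21425118 in CT replicate 2 to 80076597 in CT replicate 3, and the other 7 libraries lay between them. Members were well covered, from 543 counts (CENPA in CT replicate 2) to 76826 counts (TUBB4B in CT replicate 3). Values below are counts per 1000000 counts of the library (CPM), with library sizes scaled by TMM factors of 0.968 to 1.07, and the 3 values of a line are given in the order of replicates 1 to 3. The spread between cultures over all genes was 10.4% (biological coefficient of variation). All 9 basal mammary epithelial markers exceeded 1 CPM in every library. Summed, they ranged over 8845 to 10865 CPM in CT, over 14201 to 17916 CPM in MC26 and over 9711 to 10284 CPM in M1B26. Summed fibroblast markers stayed at or below 56.8 CPM. The 5 leukocyte markers summed to 14.8 to 19.9 CPM in CT, 34.4 to 36.8 CPM in MC26 and 56.8 to 78.9 CPM in M1B26, and the lines did not overlap. That sum came from CD68 and CD14, while PTPRC had at most 2 counts in a library and CD3E had 0. The part of these genes in the results was not tested. The hormone receptor genes ESR1 and PGR together reached at most 0.462 CPM.

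Promoters of 5 members at an extreme of a contrast, and of the paralogs CKS1B and CKS2, are shown with matches to CHR and CCAAT marked. The windows are the 180 bases before the RefSeq start of each gene on GRCh38.p14, read 5′ to 3′ along the gene. Capitals mark TTTGAA, the core of the CHR, and CCAAT, or their reverse complements TTCAAA and ATTGG. A match to TTTGAA and one to ATTGG can share 1 base, as they do in the second CHR match of MKI67. CENPF (chr1:214603015-214603194, plus strand) and MKI67 (chr10:128126424-128126603, minus strand) had the lowest log2 fold changes of M1B26 against CT and against MC26, in that order. CBX5 (chr12:54280123-54280302, minus strand) had the lowest of MC26 against CT, and AURKB (chr17:8210226-8210405, minus strand) the highest. JPT1 (chr17:75154513-75154692, minus strand) had the highest of M1B26 against CT. The windows of AURKB and JPT1 lie inside the spans of these genes given below. CKS1B (chr1:154974501-154974680, plus strand) rose in both lines and CKS2 (chr9:89311015-89311194, plus strand) passed the test in neither.
CENPF: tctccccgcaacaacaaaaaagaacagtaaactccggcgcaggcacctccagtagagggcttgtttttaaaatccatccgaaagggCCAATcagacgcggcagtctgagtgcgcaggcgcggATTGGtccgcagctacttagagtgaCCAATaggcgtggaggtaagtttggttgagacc
MKI67: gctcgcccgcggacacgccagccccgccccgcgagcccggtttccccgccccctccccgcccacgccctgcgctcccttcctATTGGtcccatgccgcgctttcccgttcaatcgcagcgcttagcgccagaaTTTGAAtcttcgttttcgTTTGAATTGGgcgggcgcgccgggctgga
CBX5: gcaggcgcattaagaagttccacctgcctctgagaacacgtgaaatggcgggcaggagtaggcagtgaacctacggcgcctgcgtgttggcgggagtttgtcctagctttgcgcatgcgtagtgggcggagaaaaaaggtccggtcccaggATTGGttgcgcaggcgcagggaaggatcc
AURKB: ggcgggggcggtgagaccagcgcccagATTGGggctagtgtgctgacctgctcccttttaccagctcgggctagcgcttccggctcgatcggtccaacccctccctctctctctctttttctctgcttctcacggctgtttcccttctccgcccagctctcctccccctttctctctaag
JPT1: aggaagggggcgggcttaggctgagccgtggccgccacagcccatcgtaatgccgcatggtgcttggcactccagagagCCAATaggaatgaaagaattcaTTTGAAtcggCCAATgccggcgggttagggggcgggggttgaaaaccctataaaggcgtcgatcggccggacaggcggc
CKS1B: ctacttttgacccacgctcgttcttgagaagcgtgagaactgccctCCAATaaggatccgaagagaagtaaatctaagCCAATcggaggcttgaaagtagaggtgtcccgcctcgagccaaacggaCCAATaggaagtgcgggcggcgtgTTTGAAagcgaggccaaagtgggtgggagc
CKS2: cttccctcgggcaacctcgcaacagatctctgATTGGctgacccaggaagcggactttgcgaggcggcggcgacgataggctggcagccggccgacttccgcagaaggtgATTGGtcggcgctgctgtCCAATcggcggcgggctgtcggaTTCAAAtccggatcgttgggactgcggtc

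RefSeq promoter windows of 300 bases (250 before the start and 50 after) were at hand for 46 of the 55 members. TTTGAA, searched on both strands, was in 32 of them (69.6%), against 15.4% of all 27305 windows. CCAAT, also on both strands, was in 31 (67.4%), against 35.7% of all windows, and 23 members (50% against 11.3%) held it more than 1 time. Both motifs were found in 54.3% of the members and in 6.08% of all windows. TTTGAA was in 13 of 18 windows of members lower in M1B26 than in CT (72.2%) and in 8 of 12 windows of members called in no comparison (66.7%). CCAAT was in 10 of 18 (55.6%) and 9 of 12 (75%) of the same windows, and more than 1 time in 38.9% and 58.3%. Of the sequences printed, those of CENPF, CBX5 and AURKB hold CCAAT without TTTGAA, and those of the other 4 hold both. A match of letters is a description of these windows and not of binding.

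Across the members, M1B26 was the lowest line and MC26 the highest. The mean level was lowest in M1B26 for 44 of 55 members, and highest in MC26 for 29. Averaged over members, log2 CPM relative to the mean of the 9 libraries was -0.05, 0.13 and 0.02 in CT replicates 1 to 3. It was 0.30, 0.10 and -0.03 in MC26, and -0.20, -0.17 and -0.10 in M1B26. All M1B26 libraries thus lay below all others, while CT and MC26 libraries overlapped.

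**Figure D1:**
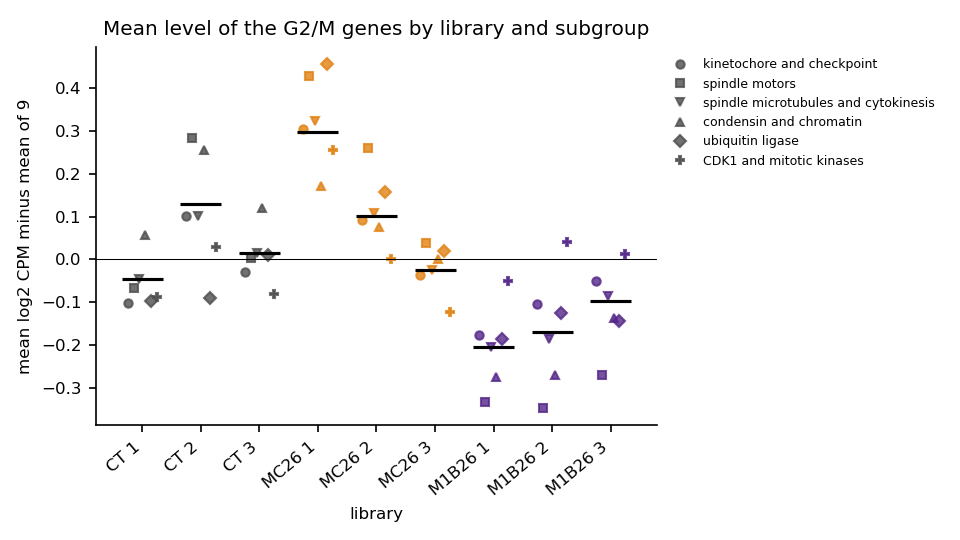
Mean log2 CPM of the G2/M genes in each library, relative to the mean of the same genes over 9 libraries; black bars are the mean of all 55 members and symbols the mean of each subgroup, coloured by line. The 3 M1B26 libraries sit between -0.20 and -0.10, below every CT and MC26 library, and MC26 spreads from -0.03 to 0.30.

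By edgeR, all genes were tested for a difference of MC26 from CT, of M1B26 from CT and of M1B26 from MC26, in that order throughout. The contrasts with CT share the same 3 CT libraries, so they are given side by side and not set against each other. A gene was called at a Benjamini-Hochberg adjusted p under 0.05. In MC26 against CT, 14 members were called (11 higher, 3 lower), which is 25.5% of the list, below the 38.7% called among all genes tested (18.8% higher, 19.9% lower). In M1B26 against CT, 26 members were called (4 higher, 22 lower), 47.3% against 48.9% of all genes, so the share was that of the background but the direction was not. Lower calls made up 22 of 55 members, against 23.7% of all genes, and higher calls 4 of 55, against 25.2%. In M1B26 against MC26, 35 members were called (3 higher, 32 lower), 63.6% of the list against 39.5% of all genes. Lower calls were 18.4% of all genes in that contrast and higher calls 21.2%.

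The changes were small. The median log2 fold change of the members was 0.08 in MC26 against CT, -0.22 in M1B26 against CT and -0.29 in M1B26 against MC26, where the median of all genes lay within 0.01 of 0. Called changes of at least 1.5-fold were found for 0, 9 and 7 members in that order, where 18.6%, 22.6% and 16.3% of all genes had one. Libraries of the groups did not overlap for 17, 39 and 39 members, against 50.3%, 59% and 53.5% of all genes.

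By pattern over the 3 contrasts, the commonest was a member below both other lines in M1B26 and not called between MC26 and CT, with 17 genes that included MKI67, NDC80, CENPE, KIF11, TPX2 and SMC4. A further 15 members, among them CDK1, CCNB2, TOP2A, BUB1, TTK and NEK2, were called in no contrast. 7 members rose in MC26 over CT and were lower in M1B26 than in MC26, with no call between M1B26 and CT. These were CDC20, CDCA3, CDCA8, HJURP, KIF23, KIF2C and TUBB4B. 6 members (ANLN, CKAP2L, NUSAP1, TACC3, TMPO and UBE2C) were called only as lower in M1B26 than in MC26. CENPF and CBX5 fell in each contrast, and CKS1B and JPT1 rose in each. The remaining 6 members, which are AURKB, BIRC5, LBR, RANGAP1, HMGB2 and HMMR, are described with their subgroups. The share of all genes with each pattern is not given here. These counts therefore describe the members and do not set them apart from other genes.

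**Figure D2:**
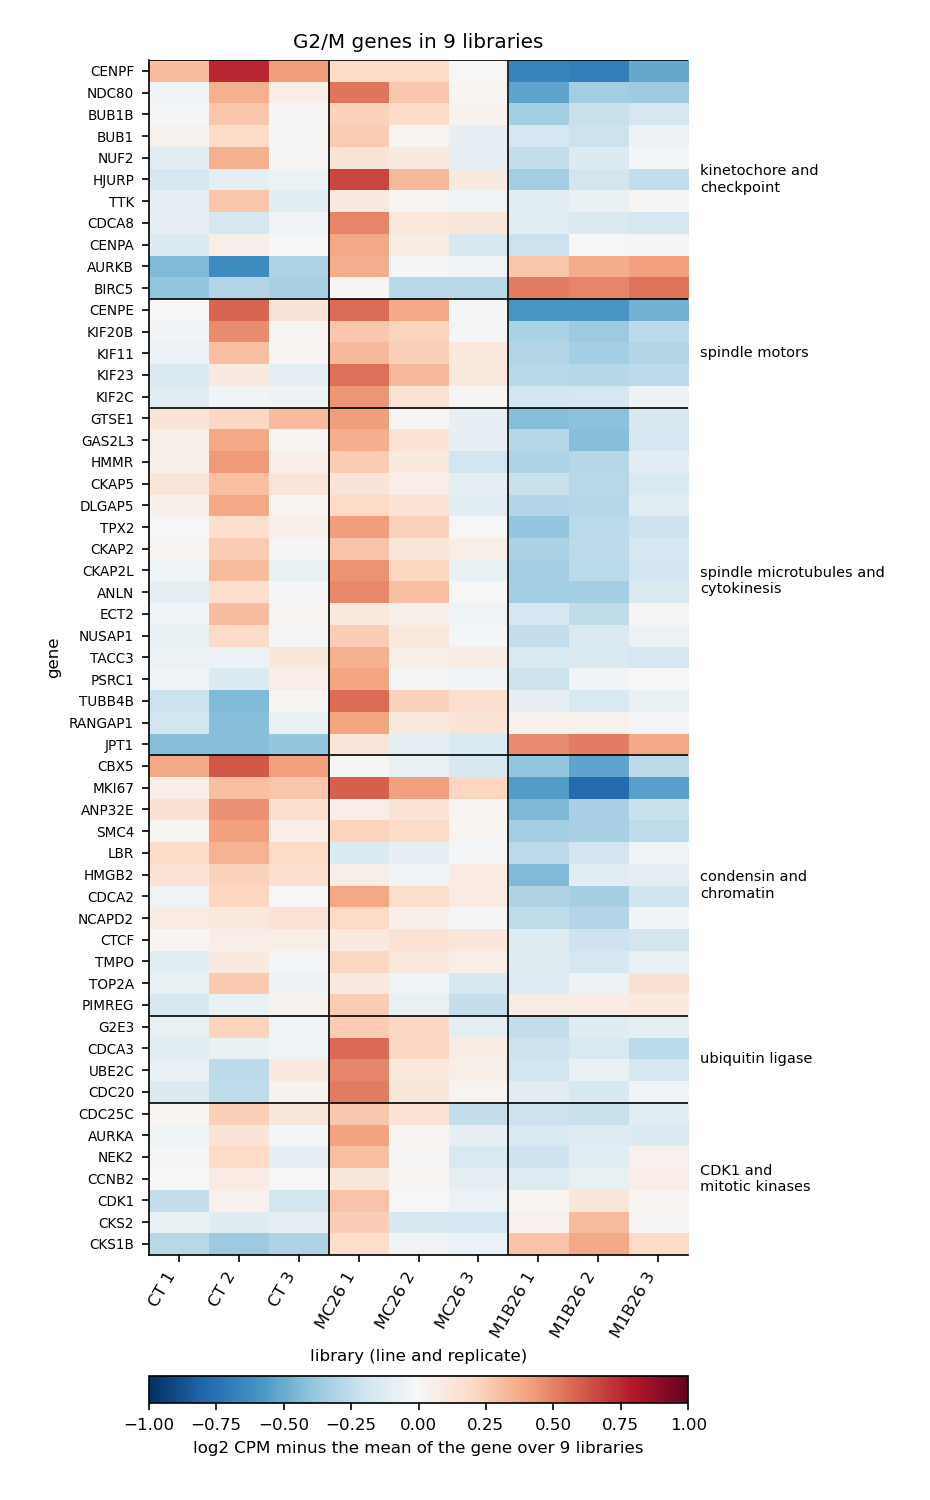
Level of each of the 55 genes in each of the 9 libraries, as log2 CPM minus the mean of that gene over all libraries (red above, blue below), with genes grouped by role. Most rows are blue in the M1B26 columns, CKS1B, JPT1, AURKB and BIRC5 are the reddest rows there, and the column of MC26 replicate 1 is the reddest.

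Of the 11 kinetochore and checkpoint genes, 3 were higher and 1 lower in MC26 than in CT. In M1B26 2 were higher and 3 lower relative to CT, and 1 was higher and 5 lower relative to MC26. Called shares were 36.4%, 45.5% and 54.5% in the order of the contrasts, against 38.7%, 48.9% and 39.5% of all genes. The largest fall was in CENPF (chromosome 1, 214603185 to 214664574), a large kinetochore and nuclear matrix protein that accumulates in G2. Its level was 361, 492 and 391 CPM in the CT libraries, 334, 333 and 293 in those of MC26 and 185, 181 and 205 in those of M1B26. The 3 lines did not overlap, and M1B26 was lowest. The log2 fold change was -1.12 (SE 0.11, edgeR adjusted p 1.61e-05) in M1B26 against CT, or 2.18-fold lower, and -0.75 (SE 0.11, edgeR adjusted p 0.000432) against MC26. MC26 was below CT by 1.29-fold (log2 -0.37, SE 0.11, edgeR adjusted p 0.0195).

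NDC80, a subunit of the complex that binds microtubule ends at the kinetochore, was at 26.5, 34.7 and 28.4 CPM in the CT libraries, 39.2, 32.6 and 27.6 in those of MC26 and 18.7, 21.2 and 21.1 in those of M1B26. The M1B26 libraries lay below all others, and CT and MC26 overlapped. M1B26 was lower than CT by 1.46-fold (log2 -0.54, SE 0.13, edgeR adjusted p 0.0063) and than MC26 by 1.63-fold (log2 -0.70, SE 0.13, edgeR adjusted p 0.00208). Its partner NUF2 was not called, with log2 fold changes of -0.22 (SE 0.12) and -0.17 (SE 0.12) in the same contrasts. Of the checkpoint kinases, BUB1B was below CT in M1B26 at -0.34 (SE 0.09, edgeR adjusted p 0.0102) and below MC26 at -0.40 (SE 0.09, edgeR adjusted p 0.00574). BUB1 and TTK passed in no contrast. BUB1 had -0.23 (SE 0.09) and -0.22 (SE 0.09) in M1B26 against CT and MC26, and TTK -0.08 (SE 0.10) and -0.08 (SE 0.10).

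The centromeric histone CENPA was not called in any contrast, whereas its chaperone HJURP was. HJURP was at 40.1, 42.4 and 43.3 CPM in the CT libraries, 71.7, 56.5 and 48.1 in those of MC26 and 35.4, 39.8 and 38.1 in those of M1B26. Every MC26 library exceeded every CT and M1B26 library, and MC26 replicate 1 stood highest. HJURP was 1.4-fold higher in MC26 than in CT (log2 0.49, SE 0.12, edgeR adjusted p 0.0088) and 1.56-fold lower in M1B26 than in MC26 (log2 -0.64, SE 0.12, edgeR adjusted p 0.00204). For CENPA the log2 fold change was 0.14 (SE 0.13) in MC26 against CT.

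The chromosomal passenger complex, which corrects wrong attachments, did not all change the same way. Its kinase AURKB (chromosome 17, 8204733 to 8210600) was at 50.1, 44.03 and 54.9 CPM in the CT libraries, 87.4, 67.1 and 66.4 in those of MC26 and 82.6, 88.1 and 90.3 in those of M1B26. All MC26 and M1B26 libraries exceeded all CT libraries, and MC26 and M1B26 overlapped. AURKB was 1.48-fold higher in MC26 (log2 0.56, SE 0.11, edgeR adjusted p 0.0026) and 1.75-fold higher in M1B26 (log2 0.80, SE 0.11, edgeR adjusted p 0.000182) than in CT.

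BIRC5, or survivin, the subunit that targets the complex to centromeres (chromosome 17, 78214186 to 78225636), was at 120.3, 129 and 126 CPM in the CT libraries, 159, 130.1 and 130.3 in those of MC26 and 224, 221 and 229 in those of M1B26. The M1B26 libraries lay far above the rest, and MC26 lay just above CT. BIRC5 was 1.8-fold higher in M1B26 than in CT (log2 0.85, SE 0.08, edgeR adjusted p 1.46e-05) and 1.61-fold higher than in MC26 (log2 0.69, SE 0.08, edgeR adjusted p 0.000119). The subunit CDCA8, or borealin, rose in MC26 over CT at 0.34 (SE 0.10, edgeR adjusted p 0.0186) and fell in M1B26 relative to MC26 at -0.39 (SE 0.10, edgeR adjusted p 0.00949). INCENP, the scaffold of the complex, is not on the list, and was chosen for mention after its values were seen. It had 0.37 (SE 0.10, edgeR adjusted p 0.0144) in MC26 against CT and -0.55 (SE 0.10, edgeR adjusted p 0.00186) in M1B26 against MC26. CDCA8 and INCENP lie off chromosome 17, while AURKB and BIRC5 lie on it, and the part of position in these values was not tested.

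**Figure D3:**
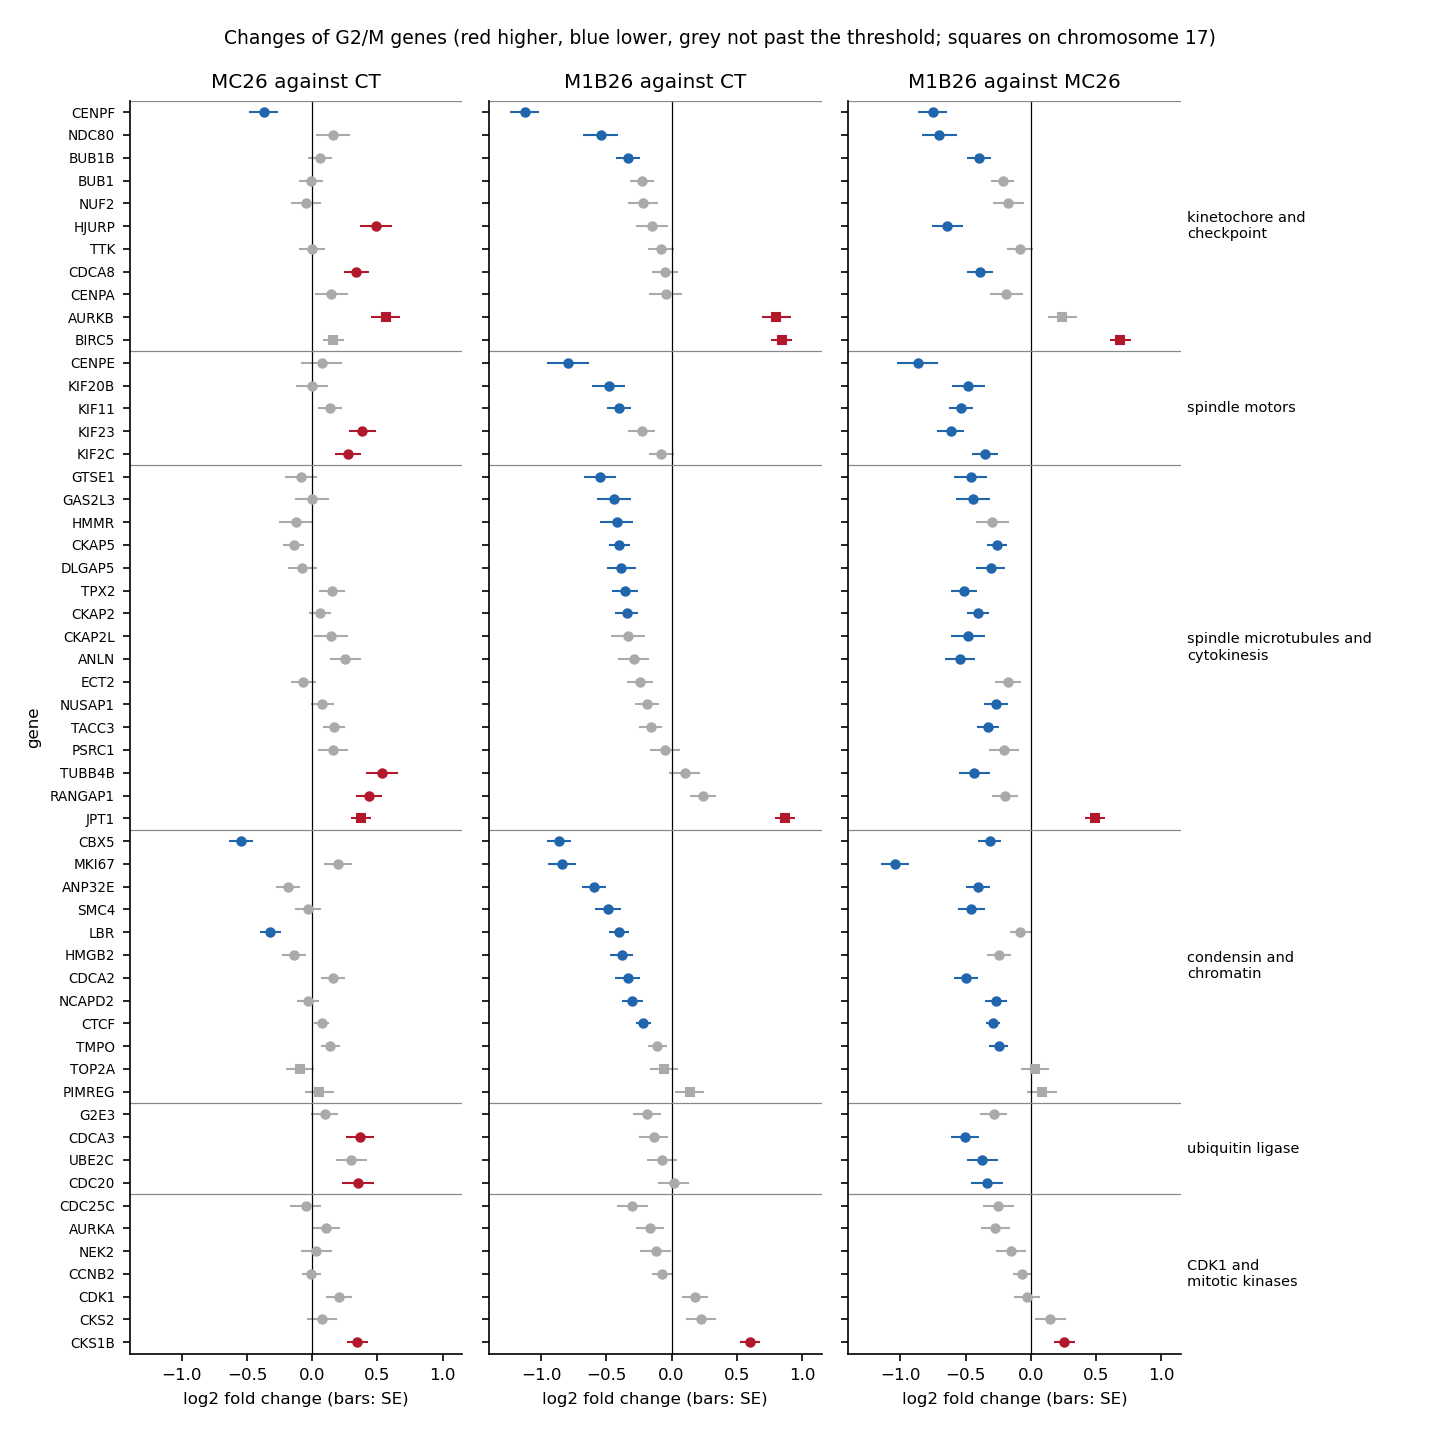
Log2 fold change with its standard error for each of the 55 genes in the 3 contrasts by edgeR, grouped by role and ordered by M1B26 against CT; red is called higher, blue called lower, grey not called, and squares mark genes on chromosome 17. In M1B26 against CT 22 points are blue and 4 red, and 3 of the 4 red points are squares.

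Of the members, 5 lie on chromosome 17. Over the 843 tested genes of that chromosome, the median log2 fold change was 0.48 both in M1B26 against CT and in M1B26 against MC26, and 64.4% and 67% of them were called higher in those contrasts. In MC26 against CT their median was 0.00. Of the 5 members, AURKB, BIRC5 and JPT1 rose in M1B26 over CT, and TOP2A and PIMREG did not pass in any contrast. TOP2A and PIMREG had log2 fold changes of -0.06 (SE 0.11) and 0.14 (SE 0.11) in M1B26 against CT. The part of the chromosome in these values was not tested. Off that chromosome, 1 of 50 members (CKS1B) rose and 22 fell in M1B26 against CT, where 23% of the genes tested there rose and 24.7% fell. Against MC26 1 of 50 rose and 32 fell, where 18.6% of genes rose and 19.3% fell.

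Spindle motors were the subgroup with every member called lower in M1B26 than in MC26 (5 of 5, against 18.4% of all genes). Their median log2 fold change was -0.53. Of the 5, 3 were also lower than in CT (60%, against 23.7% of all genes). KIF23 and KIF2C were higher in MC26 than in CT (40%, against 18.8% of all genes). CENPE, the kinesin that carries chromosomes towards the spindle equator, was at 59.6, 89.1 and 64.9 CPM in the CT libraries, 87.4, 77.5 and 58.8 in those of MC26 and 39.8, 39.8 and 42.8 in those of M1B26. The M1B26 libraries lay close together below all others, while CT and MC26 were widely spread and overlapped. CENPE was 1.74-fold lower in M1B26 than in CT (log2 -0.80, SE 0.16, edgeR adjusted p 0.00189) and 1.83-fold lower than in MC26 (log2 -0.87, SE 0.16, edgeR adjusted p 0.00169).

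KIF11, or Eg5, which slides antiparallel microtubules apart, was at 109, 139.8 and 115 CPM in the CT libraries, 142, 134 and 123 in those of MC26 and 92.7, 90.1 and 92.8 in those of M1B26. M1B26 was again below every other library, and was 1.32-fold lower than CT (log2 -0.40, SE 0.09, edgeR adjusted p 0.00433) and 1.45-fold lower than MC26 (log2 -0.53, SE 0.09, edgeR adjusted p 0.0012). KIF20B, a kinesin of late mitosis, changed by -0.48 and -0.48 in the same contrasts, with adjusted p 0.00835 and 0.0113 by edgeR.

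KIF23, the kinesin of the central spindle on which cytokinesis depends, had another pattern. It was at 93.3, 109.9 and 96.8 CPM in the CT libraries, 151, 129 and 111 in those of MC26 and 84.9, 84.7 and 85.95 in those of M1B26. Every MC26 library exceeded every CT library, every M1B26 library lay below both, and the M1B26 libraries differed little. KIF23 was 1.3-fold higher in MC26 than in CT (log2 0.38, SE 0.10, edgeR adjusted p 0.0136) and 1.53-fold lower in M1B26 than in MC26 (log2 -0.61, SE 0.10, edgeR adjusted p 0.00106). The contrast of M1B26 with CT did not pass, at -0.23 (SE 0.10, edgeR adjusted p 0.0894). KIF2C, a kinesin that depolymerises microtubules at the centromere, was 1.21-fold higher in MC26 than in CT with adjusted p 0.0484 by edgeR, close to the threshold.

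Among the 16 genes of spindle microtubules and cytokinesis, 3 were higher and 0 lower in MC26 than in CT. The lower count was also 0 at an unadjusted p under 0.05 and by DESeq2. In M1B26 1 was higher and 7 lower relative to CT, and 1 was higher and 11 lower relative to MC26. The shares called were 18.8%, 50% and 75% in the order of the contrasts, against 38.7%, 48.9% and 39.5% of all genes. TPX2, which activates AURKA and nucleates spindle microtubules, was at 204, 230.1 and 213 CPM in the CT libraries, 274, 240.1 and 205 in those of MC26 and 157, 171 and 177 in those of M1B26. The M1B26 libraries were below all others. TPX2 was 1.28-fold lower in M1B26 than in CT (log2 -0.36, SE 0.10, edgeR adjusted p 0.0118) and 1.42-fold lower than in MC26 (log2 -0.51, SE 0.10, edgeR adjusted p 0.00237). The microtubule polymerase CKAP5, GTSE1, CKAP2, DLGAP5 and GAS2L3 were lower in both contrasts too, by 1.27- to 1.46-fold against CT. HMMR, a hyaluronan receptor that also binds the spindle, was 1.34-fold lower in M1B26 than in CT (adjusted p 0.0167 by edgeR), and did not pass against MC26 (-0.29, SE 0.13, edgeR adjusted p 0.084).

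ANLN, or anillin, which organises the contractile ring, was at 260.2, 313 and 275 CPM in the CT libraries, 388, 344 and 278 in those of MC26 and 220.2, 221 and 253 in those of M1B26. M1B26 was below all CT and MC26 libraries, and CT and MC26 overlapped. It was 1.46-fold lower in M1B26 than in MC26 (log2 -0.54, SE 0.12, edgeR adjusted p 0.00425) and did not pass against CT (-0.29, SE 0.12, edgeR adjusted p 0.0607). ECT2, a regulator of cytokinesis, passed in no contrast, with -0.24 (SE 0.10) in M1B26 against CT.

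TUBB4B, a beta-tubulin, had the highest level of the list. Per kilobase of exon its CT mean was 396 CPM, against 153 for CKS2 and 125 for CDC20, the next in order, and 3.24 for GAS2L3, the lowest. TUBB4B was at 798, 684 and 937 CPM in the CT libraries, 1368, 1089 and 1042 in those of MC26 and 877, 836 and 882 in those of M1B26. Every MC26 library lay above all CT and M1B26 libraries, and CT and M1B26 overlapped. It was 1.45-fold higher in MC26 than in CT (log2 0.53, SE 0.12, edgeR adjusted p 0.0056) and 1.35-fold lower in M1B26 than in MC26 (log2 -0.43, SE 0.12, edgeR adjusted p 0.016). RANGAP1, which switches off the GTPase Ran, was 1.35-fold higher in MC26 than in CT (log2 0.44, SE 0.10, edgeR adjusted p 0.00597), and was called in no other contrast.

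JPT1 (chromosome 17, 75135248 to 75168281), a microtubule-associated protein, was at 189, 188 and 194 CPM in the CT libraries, 276, 237 and 228 in those of MC26 and 352, 361 and 330.3 in those of M1B26. No library of a line overlapped with one of another. It was 1.3-fold higher in MC26 than in CT (log2 0.37, SE 0.08, edgeR adjusted p 0.00321), 1.83-fold higher in M1B26 than in CT (log2 0.87, SE 0.08, edgeR adjusted p 8.36e-06) and 1.41-fold higher in M1B26 than in MC26 (log2 0.49, SE 0.08, edgeR adjusted p 0.00066).

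**Figure D4:**
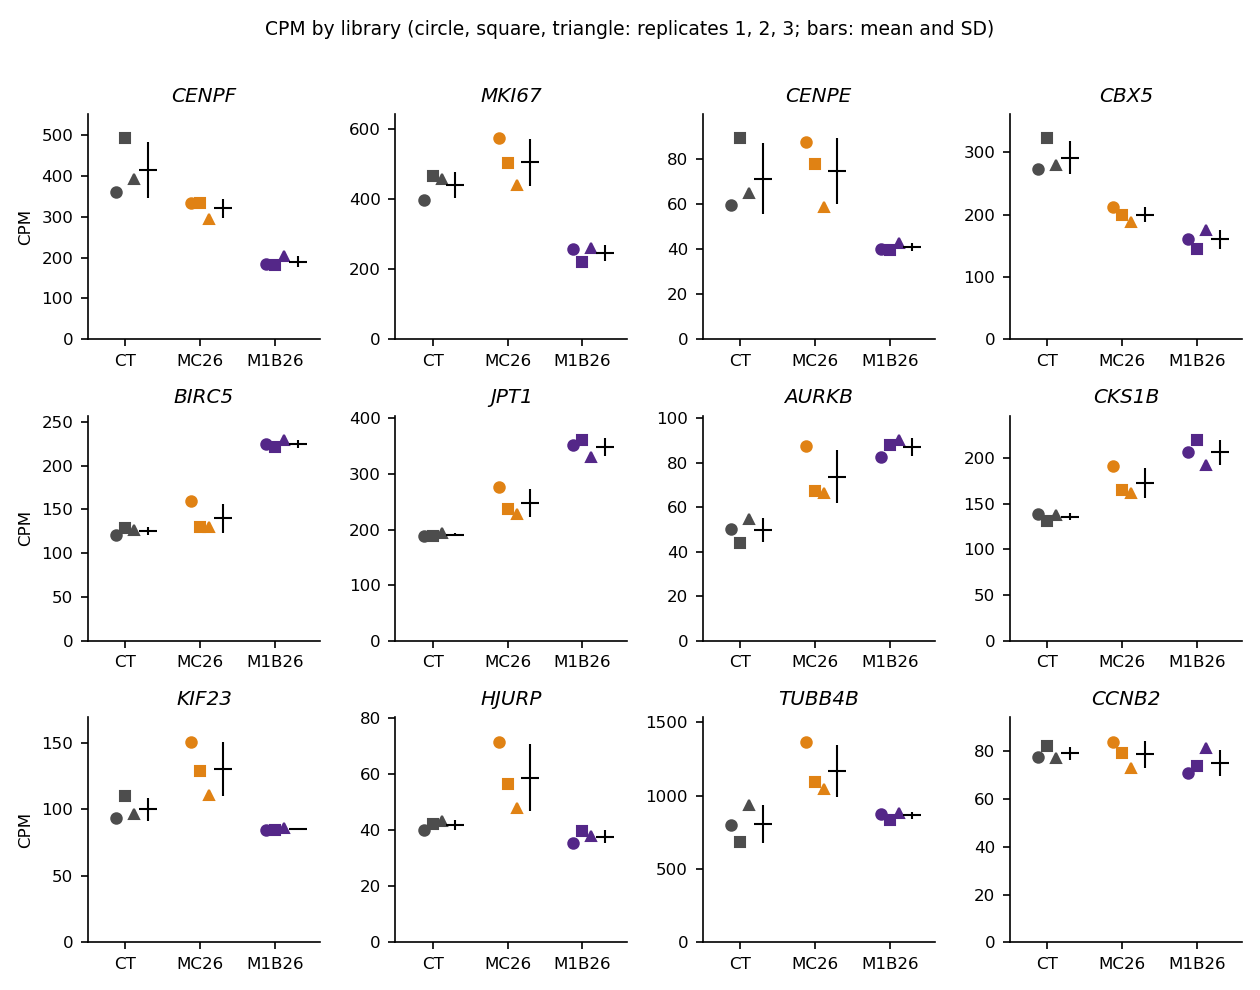
CPM in each library for 12 of the genes; circle, square and triangle are replicates 1, 2 and 3, and the bars are the mean and SD of 3 cultures. M1B26 is lowest for CENPF, MKI67, CENPE and CBX5 and highest for BIRC5 and JPT1, MC26 is highest for KIF23, HJURP and TUBB4B, and the lines overlap for CCNB2.

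The condensin and chromatin subgroup had 0 higher calls by edgeR in each contrast, also at an unadjusted p under 0.05 and by DESeq2. With the correction for exonic length given further on, MKI67, TMPO and CTCF were called higher in MC26 against CT, at 0.31, 0.24 and 0.18 (adjusted p 0.0279, 0.0202 and 0.0253 by edgeR). Of the 12 genes, 2 were lower in MC26 than in CT, 9 were lower in M1B26 than in CT, and 8 were lower in M1B26 than in MC26. These are 16.7%, 75% and 66.7% of the subgroup, where 19.9%, 23.7% and 18.4% of all genes were lower. MKI67 (chromosome 10, 128096659 to 128126423), whose product Ki-67 coats mitotic chromosomes and is the usual marker of cycling cells, was at 397, 466 and 459 CPM in the CT libraries, 575, 503 and 440.3 in those of MC26 and 258, 221 and 261 in those of M1B26. M1B26 was far below both other lines, which overlapped only in that MC26 replicate 3 lay below CT replicates 2 and 3. MKI67 was 2.05-fold lower in M1B26 than in MC26 (log2 -1.04, SE 0.11, edgeR adjusted p 4.91e-05) and 1.79-fold lower than in CT (log2 -0.84, SE 0.11, edgeR adjusted p 9.82e-05). MC26 against CT did not pass, at 0.20 (SE 0.11, edgeR adjusted p 0.163).

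CBX5 (chromosome 12, 54230942 to 54280133), a heterochromatin protein that reads methylated histone H3, was at 273, 322 and 279 CPM in the CT libraries, 211, 199 and 188 in those of MC26 and 160.3, 145 and 175 in those of M1B26. The 3 lines did not overlap, with CT highest and M1B26 lowest. CBX5 was 1.46-fold lower in MC26 (log2 -0.55, SE 0.09, edgeR adjusted p 0.000796) and 1.82-fold lower in M1B26 (log2 -0.86, SE 0.09, edgeR adjusted p 2.41e-05) than in CT, and 1.25-fold lower in M1B26 than in MC26. LBR, an inner nuclear membrane protein that binds heterochromatin, was 1.25-fold lower in MC26 and 1.32-fold lower in M1B26 than in CT (adjusted p 0.00777 and 0.00158 by edgeR). M1B26 and MC26 were not called apart for LBR (log2 -0.08, SE 0.08).

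SMC4, a core subunit of condensin, was at 214, 279 and 219 CPM in the CT libraries, 244, 239 and 213 in those of MC26 and 165, 168 and 176 in those of M1B26. The M1B26 libraries lay below all others, and CT and MC26 overlapped. It was 1.4-fold lower in M1B26 than in CT (log2 -0.49, SE 0.10, edgeR adjusted p 0.00229) and 1.37-fold lower than in MC26 (log2 -0.45, SE 0.10, edgeR adjusted p 0.00484). NCAPD2, another condensin subunit, changed by -0.30 and -0.27, with adjusted p 0.0121 and 0.0254 by edgeR. ANP32E, a chaperone of the histone variant H2A.Z, was 1.51-fold lower in M1B26 than in CT (log2 -0.59, SE 0.09, edgeR adjusted p 0.000377). HMGB2, CDCA2 and CTCF were 1.3-, 1.26- and 1.16-fold lower in M1B26 than in CT (adjusted p 0.00471, 0.0125 and 0.00855 by edgeR). TMPO, a lamina-associated protein, was 1.19-fold lower in M1B26 than in MC26 alone.

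Of the 4 ubiquitin ligase genes, 2 rose in MC26 over CT (50%, against 18.8% of all genes). In M1B26 3 were lower than in MC26 (75%, against 18.4% of all genes). By edgeR 0 of 4 passed in M1B26 against CT, where 48.9% of all genes did. The count was also 0 at an unadjusted p under 0.05 and by DESeq2. With the correction for exonic length UBE2C passed there, at -0.34 (adjusted p 0.0288 by edgeR). CDC20, the activator of the anaphase-promoting complex that the checkpoint holds back, was at 247, 229 and 281 CPM in the CT libraries, 391, 295 and 279 in those of MC26 and 254, 244 and 268 in those of M1B26. MC26 replicate 1 stood apart from the rest, and MC26 replicate 3 lay within the CT range. CDC20 was 1.27-fold higher in MC26 than in CT (log2 0.35, SE 0.12, edgeR adjusted p 0.0395) and 1.26-fold lower in M1B26 than in MC26 (log2 -0.33, SE 0.12, edgeR adjusted p 0.0464).

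CDCA3, a trigger of entry into mitosis that acts through a ubiquitin ligase, was 1.29-fold higher in MC26 than in CT (log2 0.37, SE 0.11, edgeR adjusted p 0.0194) and 1.42-fold lower in M1B26 than in MC26 (log2 -0.51, SE 0.11, edgeR adjusted p 0.00392). UBE2C, the conjugating enzyme of the anaphase-promoting complex, was at 71.2, 62.3 and 79.6 CPM in the CT libraries, 105, 80.3 and 77.8 in those of MC26 and 65.8, 71.2 and 65.97 in those of M1B26. MC26 replicate 1 was again the highest library, and CT and M1B26 overlapped. UBE2C was 1.29-fold lower in M1B26 than in MC26 (log2 -0.37, SE 0.12, edgeR adjusted p 0.0277). The ligase G2E3 did not pass, with -0.28 (SE 0.11, edgeR adjusted p 0.0516) in that contrast.

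In the CDK1 subgroup 1 of 7 genes was called, or 14.3% in each contrast, against 38.7%, 48.9% and 39.5% of all genes. This gene, CKS1B, was higher in each contrast, and the other 6, which are CDK1, CCNB2, CKS2, CDC25C, AURKA and NEK2, were called in none. At an unadjusted p under 0.05, and by DESeq2, 1 of these was lower in M1B26 when set against CT and 1 when set against MC26. With the correction for exonic length CCNB2, CDC25C and AURKA were lower in both of these contrasts, at -0.23, -0.42 and -0.32 against CT (adjusted p 0.0436, 0.0186 and 0.0458 by edgeR). CDK1, the kinase that drives mitosis, was at 95.96, 116 and 99.5 CPM in the CT libraries, 138, 113 and 108 in those of MC26 and 114, 123 and 115 in those of M1B26. MC26 replicate 1 was highest and the lines overlapped, with log2 fold changes of 0.21 (SE 0.10), 0.18 (SE 0.10) and -0.03 (SE 0.10) in the order of the contrasts. CCNB2, its cyclin partner, was at 77.7, 82.2 and 77.05 CPM in the CT libraries, 84.00, 79.02 and 72.8 in those of MC26 and 70.7, 73.6 and 81.2 in those of M1B26. All 3 lines overlapped, and the 3 log2 fold changes lay between -0.07 and -0.01 with SE of 0.08.

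The paralogs CKS1B and CKS2, small subunits of cyclin-dependent kinases, differed in whether they passed. CKS1B was at 139, 131 and 137 CPM in the CT libraries, 191, 165 and 162 in those of MC26 and 206, 220.0 and 193 in those of M1B26. The lines did not overlap, in the order CT, MC26, M1B26. CKS1B was 1.27-fold higher in MC26 (log2 0.34, SE 0.08, edgeR adjusted p 0.0058) and 1.52-fold higher in M1B26 (log2 0.60, SE 0.08, edgeR adjusted p 0.000122) than in CT. CKS2 was at 95.7, 92.5 and 94.1 CPM in the CT libraries, 119, 89.7 and 88.9 in those of MC26 and 104, 125 and 101 in those of M1B26. MC26 overlapped with CT and M1B26 lay above CT, and the log2 fold change of M1B26 against CT was 0.23 (SE 0.12, edgeR adjusted p 0.13). The difference between the paralogs was not tested.

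Members moved together within a line as well. Of the 3 MC26 cultures, replicate 1 held the highest value for 51 of 55 members and replicate 3 the lowest for 48, where 35.5% and 37.1% of all genes had these libraries at the top and at the bottom. CT replicate 2 was highest for 39 members (42% of all genes) and CT replicate 1 lowest for 35 (19.4% of all genes). M1B26 replicate 3 was highest for 41 members (35.6% of all genes). Across members, CT cultures had a median coefficient of variation of 9.7%, MC26 cultures 12% and M1B26 cultures 5.49%. For the 7362 genes in the same range of CPM it was 7.35%, 5.55% and 5.17%.

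Some calls were lost when 1 library was left out. In MC26 against CT 6 members lost their call in this way (CENPF, CDCA8, KIF23, KIF2C, CDC20 and CDCA3). Without MC26 replicate 1, the log2 fold change was 0.20 for CDCA8, 0.22 for CDCA3, 0.19 for CDC20 and 0.14 for KIF2C, and none of the 4 passed. Without CT replicate 1, CDCA8, CDCA3, CDC20, KIF2C and KIF23 did not pass, although their log2 fold changes, at 0.35, 0.35, 0.34, 0.26 and 0.34, had moved by little. For CENPF it was -0.23 without CT replicate 2 (adjusted p 0.0514 by edgeR) and -0.31 without MC26 replicate 3 (edgeR adjusted p 0.058).

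For M1B26 against CT 6 members lost a call (CDCA2, DLGAP5, GAS2L3, HMMR, NCAPD2 and TPX2), with adjusted p between 0.0508 and 0.0702 by edgeR, on leaving out CT replicate 2 or M1B26 replicate 1 or 2. Their log2 fold changes moved by less than 1 SE, as for DLGAP5 at -0.35 without M1B26 replicate 1 or 2 and TPX2 at -0.30 without M1B26 replicate 1. In M1B26 against MC26 14 members did so, with adjusted p between 0.0525 and 0.193 by edgeR. These were KIF2C, NUSAP1, CKAP5, CKAP2L, DLGAP5, GTSE1, GAS2L3, TUBB4B, NCAPD2, CBX5, TMPO, UBE2C, CDC20 and CKS1B. The log2 fold change of CDC20 was -0.17 without MC26 replicate 1, that of UBE2C -0.22 and that of TUBB4B -0.30. The libraries that cost most calls were M1B26 replicate 2 (13), M1B26 replicate 1 (12) and MC26 replicate 1 (12). Without each of these, calls over all genes fell too. Without MC26 replicate 1 they were 17.4% higher and 13.8% lower in that contrast (21.2% and 18.4% with all libraries). Calls that held under every alternative setting other than an adjusted p under 0.01 numbered 8 of 14, 19 of 26 and 21 of 35. The 19 in M1B26 against CT included CENPF, MKI67, CENPE, CBX5, KIF11, NDC80, SMC4 and BIRC5.

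Exonic length ran with the changes. Across the 55 members, Spearman's rank correlation between the log2 fold change of M1B26 against CT and exonic length in bases was -0.55, and -0.54 without the 5 genes of chromosome 17. Over the 13830 tested genes with a known length it was -0.25. In M1B26 against MC26 it was -0.37 over members and -0.21 over all genes, and in MC26 against CT -0.30 and -0.09. These are correlations across genes, which share libraries and are not independent replicates. Of the 22 members with at least 5000 bases of exon, 12 were lower and 0 higher in M1B26 than in CT (1, RANGAP1, was higher at an unadjusted p under 0.05, and 0 by DESeq2). Of the 33 shorter ones, 10 were lower and 4 higher. Genes in general were tilted the same way. With all genes in 10 bins of length, the median log2 fold change of M1B26 against CT was 0.24 in the shortest bin. In the longest bin it was -0.20. The shares of all long and all short genes called are not given here.

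Length also ran with differences between cultures of a line. Spearman's rank correlation between a library's deviation from the mean of its line and exonic length was -0.20, 0.24 and -0.20 over all genes in CT replicates 1 to 3. It was -0.04, 0.15 and -0.06 in MC26 and 0.03, -0.25 and 0.20 in M1B26. In CT replicate 2, the shallowest library, long members lay 0.15 above the mean of the line at the median and long genes in general 0.03.

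With each library corrected for exonic length, a setting chosen after the data were seen, 30 members were called in M1B26 against CT (4 higher, 26 lower) and 42 in M1B26 against MC26 (2 higher, 40 lower). In MC26 against CT 19 were called (17 higher, 2 lower). The correction also moved genes in general. Under it 22.7% of all genes had a higher call and 23.2% a lower one for M1B26 against CT, 16.6% and 24.6% in M1B26 against MC26, and 24.4% and 17% in MC26 against CT. The median log2 fold change of all genes was then -0.02, -0.08 and 0.06 in that order. CENPF, MKI67, CBX5 and CENPE, at -0.98, -0.69, -0.71 and -0.67, kept their calls in M1B26 against CT. CTCF lost its call there, at -0.09 (adjusted p 0.2 by edgeR). CKS1B lost its call in M1B26 against MC26, at 0.05 (adjusted p 0.642 by edgeR). CENPF lost its call in MC26 against CT (adjusted p 0.0523 by edgeR). Calls gained were TACC3, ANLN, CTCF, MKI67, TMPO and UBE2C, all higher, in MC26 against CT. In M1B26 against CT they were NUSAP1, UBE2C, CCNB2, CDC25C and AURKA, and against MC26 CENPA, BUB1, HMMR, PSRC1, HMGB2, CCNB2, CDC25C and AURKA, all lower.

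**Figure D5:**
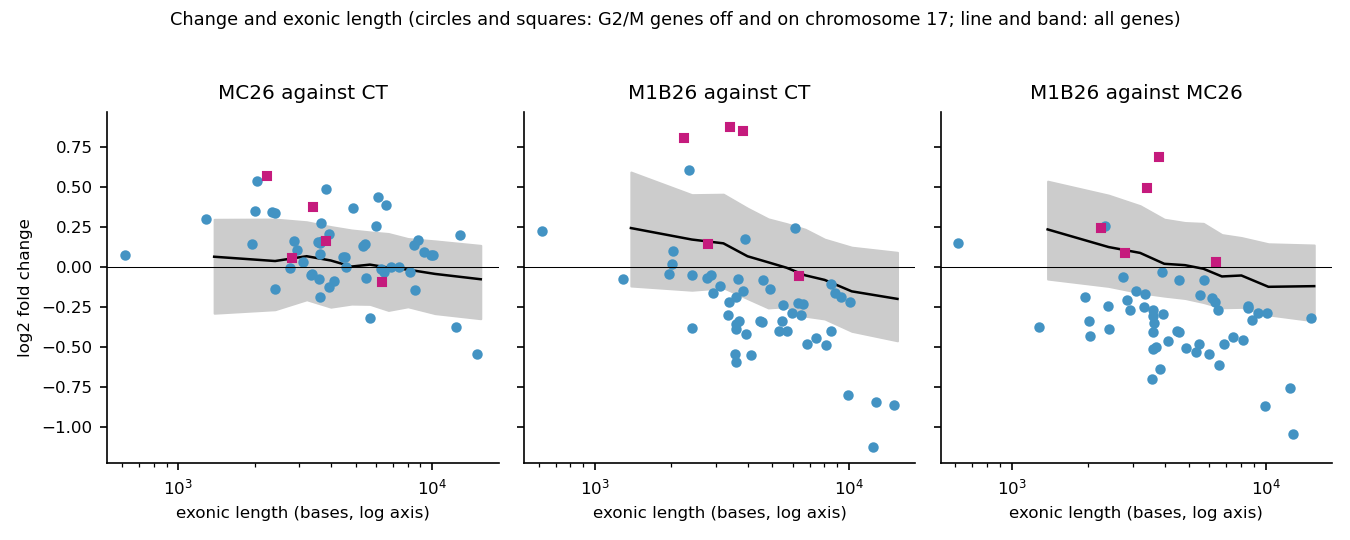
Log2 fold change of each of the 55 genes against exonic length in bases (log axis) in the 3 contrasts; circles are members off chromosome 17 and squares those on it, and the line and band are the median and quartiles of all genes in 10 bins of length. In M1B26 against CT the members above 5000 bases lie mostly below 0, the line for all genes falls from 0.24 to -0.20, and most members lie below that line.

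Some members share exons with a neighbour, and whether the counting used strand is not given in the sources used here. The largest overlaps were 81.4% of the exonic bases of NUSAP1 with a same-strand readthrough gene of chromosome 15, 19% of SMC4 with TRIM59, 13.1% of CTCF with an antisense RNA and 11.3% of CDCA3 with GNB3. Counts of these 4 genes are uncertain to that extent.

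Beyond the list, 124 other genes of mitosis were set out by the same roles, with the factors that transcribe G2/M genes added. Of these, 42 were higher and 9 lower in MC26 than in CT, or 33.9% and 7.26% against 18.8% and 19.9% of all genes. Between M1B26 and CT 29 were higher in M1B26 and 25 lower, and these shares, 23.4% and 20.2%, were near the 25.2% and 23.7% of all genes. Of the 117 off chromosome 17, 23 were higher and 25 lower in that contrast. These are 19.7% and 21.4%, against 23% and 24.7% of the genes tested there. In M1B26 against MC26 12 were higher and 47 lower, or 9.68% and 37.9% against 21.2% and 18.4%. The median log2 fold changes were 0.15, -0.01 and -0.18.

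By role, 17 of 37 other kinetochore and checkpoint genes rose in MC26 over CT (45.9%, against 18.8% of all genes). By edgeR 0 fell (0 also at an unadjusted p under 0.05 and by DESeq2), where 19.9% of all genes did. In M1B26 15 of 37 were lower and 4 higher than in MC26 (40.5% and 10.8%, against 18.4% and 21.2% of all genes). Of 8 other spindle motors, 6 were lower in M1B26 than in MC26 (75%, against 18.4% of all genes). In M1B26 against CT 4 motors were lower and 1, KIF18B on chromosome 17, was higher (50% and 12.5%). For this and the roles below, 23.7% of all genes were lower and 25.2% higher in M1B26 than in CT. Of 14 other genes of condensin, cohesin and their release, 9 were lower and 2 higher in M1B26 than in CT (64.3% and 14.3%). Among 19 other genes of spindle microtubules and cytokinesis, 7 were higher and 4 lower there (36.8% and 21.1%). For 17 other ubiquitin ligase genes these counts were 6 and 3 (35.3% and 17.6%). For 15 factors that transcribe G2/M genes they were 2 and 1 (13.3% and 6.67%). Among 14 other mitotic kinases and partners, 1 was higher (7.14%) and 0 lower (2 lower at an unadjusted p under 0.05, 1 by DESeq2).

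The cyclins CCNB1 and CCNA2 passed in no contrast. For CCNB1 the CT mean was 249.5 ± 10.9 CPM (SD, n = 3 in each line), that of MC26 262 ± 29.7 and that of M1B26 239 ± 1.87. PLK1, a master kinase of mitosis, was higher in MC26 than in CT at 0.45 (SE 0.12, edgeR adjusted p 0.0106) and fell in M1B26 relative to MC26 at -0.34 (SE 0.12, edgeR adjusted p 0.0387). MYBL2, which encodes B-MYB, changed the same way by 0.56 (SE 0.10, edgeR adjusted p 0.00115) and -0.60 (SE 0.10, edgeR adjusted p 0.000801). FOXM1 was lower in M1B26 than in MC26 at -0.33 (SE 0.09, edgeR adjusted p 0.0109), and neither gene passed in M1B26 against CT at -0.04 (SE 0.10) and -0.18 (SE 0.09).

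The extremes of the wider list in MC26 against CT were PKMYT1, which inhibits CDK1, at 0.94 (SE 0.16, edgeR adjusted p 0.00122) and E2F5, a factor of the repressor complex, at -0.59 (SE 0.12, edgeR adjusted p 0.00267). After these came E2F4 and MYBL2 at 0.65 and 0.56, and RBL2 and STAG2 at -0.55 and -0.43. In M1B26 against CT the highest were ANAPC11 at 1.41 (SE 0.10, edgeR adjusted p 2.14e-06) and MIS12 at 0.76, both on chromosome 17, and CENPQ at 0.87. The lowest were the spindle pole gene ASPM at -0.89 (SE 0.13, edgeR adjusted p 0.000254), the kinetochore scaffold KNL1 at -0.55 (SE 0.14, edgeR adjusted p 0.00729) and STAG1 at -0.53. ASPM (-0.80), KNL1 (-0.77) and RBL1 (-0.63) were the lowest in M1B26 against MC26, and ANAPC11 (1.19), E2F5 (0.67) and MIS12 (0.59) the highest. ASPM and KNL1 have 11994 and 10250 bases of exon, against 12471, 12845 and 9928 for CENPF, MKI67 and CENPE. NSL1, a longer kinetochore gene of the wider list (13867 bases) chosen for mention after its values were seen, went the other way. Its mean was 49.7 CPM in CT and 64.2 CPM in M1B26. Still longer genes of the wider list had lower means in M1B26 than in CT. Examples are NCAPD3 (18698 bases, 118.6 CPM in CT and 92.6 CPM in M1B26) and CIT (28605 bases, 60.5 and 51.9 CPM). They too were chosen after their values were seen. Length as a cause of these changes was not tested.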

How the data were processed

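The authors deposited raw counts of paired-end poly-A RNA-seq reads per gene symbol, 1 column per culture. By the study's methods, reads were aligned to GRCh38 with STAR 2.7.3a, and expression was quantified with Salmon 1.1.0 on protein-coding genes. The table holds whole numbers and non-coding genes too, and which step made it, whether strand was used and what was done with multiply aligned reads is not given in the sources used here. Groups and replicate numbers were read from sample titles, and every column matched 1 sample.

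The counts were tested with edgeR 4.0.16 under R 4.3.3. After filterByExpr with a minimum count of 10 and TMM scaling, 1 quasi-likelihood model with a term for line and no other covered the 9 libraries. P-values are 2-sided and were adjusted by Benjamini-Hochberg over all 15717 genes. They set each difference against the spread between these cultures, and do not cover how separately derived lines would differ. The SE is the absolute log2 fold change over the square root of F. CPM used TMM-scaled library sizes. Positions and exonic lengths came from GENCODE on GRCh38, matched by symbol (36923 of 60199 symbols, all members included), and promoters from RefSeq.

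The members and lists were chosen with earlier results of these data known. By the rule for naming, all members could be named, with 5 other mitotic genes always (CCNB1, CCNA2, PLK1, FOXM1 and MYBL2) and the 3 highest and 3 lowest called ones per contrast.

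Alternatives were RLE factors, no scaling factors, TMM without chromosome 17, keeping every gene, keeping genes with a mean of 50 counts or more, DESeq2 1.42.0, fitting 6 libraries at a time, a replicate block, an adjusted p under 0.01 and leaving out each library. Correction for exonic length by loess per library, alone and with the block, and leaving out chromosome 17 were added after the data were seen. The fit was tested on simulated counts.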

Additional observations from a re-analysis of the deposited data

Results flagged for a closer look

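The change against CT differed between M1B26 and MC26, by the direct edgeR contrast of the 2 lines, for 35 of the 55 members. This is 63.6%, against 39.5% of all genes. By role these were 6 kinetochore and checkpoint genes, 5 spindle motors, 12 genes of spindle microtubules and cytokinesis, 8 condensin and chromatin genes, 3 ubiquitin ligase genes and 1 gene of the CDK1 subgroup (CKS1B).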

How the results depend on the processing

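No call of a member changed direction under any alternative run. The counts of members called were 14 in MC26 against CT, 26 in M1B26 against CT and 35 in M1B26 against MC26. At an adjusted p under 0.01 they were 8, 19 and 19, with the share of all genes not given here. Leaving out 1 library gave 9 to 17, 21 to 33 and 22 to 40, with 9 without CT replicate 1, 23 without M1B26 replicate 1 and 22 without M1B26 replicate 2. Calls over all genes fell in these runs too. Without CT replicate 1, 13.6% were higher and 14.8% lower in MC26 against CT (18.8% and 19.9% with all libraries). In M1B26 against MC26, 17.7% were higher and 14.5% lower without M1B26 replicate 1. Without M1B26 replicate 2 these were 17% and 12.5% (21.2% and 18.4% with all libraries). For the 124 other mitotic genes the counts were 51, 54 and 59. At an adjusted p under 0.01 they were 23, 33 and 35. Leaving out 1 library gave 27 to 61, 36 to 56 and 41 to 77. In MC26 against CT the counts were 30 without CT replicate 1, 27 without MC26 replicate 1 and 33 without MC26 replicate 2. Over all genes, 13.4% were higher and 14.9% lower there without MC26 replicate 1, and 14.6% and 15.7% without MC26 replicate 2. Where 2 cultures of a line remained, their spread was pooled with that of the others. Without scaling factors 35 members were called in M1B26 against CT (4 higher, 31 lower), where 19.7% of all genes were higher and 30.1% lower. The share of higher calls among all called genes was then 39.6% against 51.5% in M1B26 against CT and 35.8% against 48.5% in MC26 against CT. With the correction for exonic length that share was 58.96% in MC26 against CT and 40.3% (53.5% without it) in M1B26 against MC26. Replicate numbers showed no pairing of the cultures. Correlations of the deviations of same-numbered libraries lay between -0.11 and 0.14, and those of differently numbered ones between -0.13 and 0.12. With 3 libraries per line, such values cannot show whether batches were shared. With the replicate number as a block 13, 26 and 34 members and 45, 51 and 54 other mitotic genes were called. With the block and the length correction 16, 29 and 41 members were called. Depth did not limit detection of the members, the lowest count of which was 543.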

Other observations

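The genes of DNA replication, the phase before G2, moved with the list in part. Of the 43 genes of the S phase list that is used with the G2/M list to score cells, 29 were higher and 0 lower in MC26 than in CT by edgeR (1 lower at an unadjusted p under 0.05, with DESeq2 not run on this list), with a median log2 fold change of 0.34. Higher calls in MC26 against CT were 67.4% of this list, against 18.8% of all genes. In M1B26 against CT 14 were higher and 5 lower (32.6% and 11.6%, against 25.2% and 23.7% of all genes), with a median of 0.09. In M1B26 against MC26 3 were higher and 21 lower (6.98% and 48.8%, against 21.2% and 18.4% of all genes), with a median of -0.21. CDC6, which loads the replicative helicase, had log2 fold changes of 0.64 (SE 0.07, edgeR adjusted p 4.78e-05), 0.50 (SE 0.07, edgeR adjusted p 0.000165) and -0.14 (SE 0.07, edgeR adjusted p 0.138) in the same order. It lies on chromosome 17, where the medians of the 843 genes tested were 0.00, 0.48 and 0.48. The part of position in its values was not tested. PCNA, the sliding clamp of the polymerase, had 0.28 (SE 0.07, edgeR adjusted p 0.00666), 0.29 (SE 0.07, edgeR adjusted p 0.0037) and 0.01 (SE 0.07, edgeR adjusted p 0.885). RRM2, a subunit of ribonucleotide reductase, had 0.65 (SE 0.10, edgeR adjusted p 0.000722), 0.05 (SE 0.10, edgeR adjusted p 0.717) and -0.60 (SE 0.10, edgeR adjusted p 0.00125). These 3 genes were chosen for mention after their values were seen.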
